A study of Mus musculus with 12 samples.

Results

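The 500 genes whose expression differed most among 9 mouse mammary tumours are described here. They were chosen by their spread: counts were scaled by the trimmed mean of M values (TMM) and written as log2 counts per 1000000 gene counts (log2 CPM, with a prior count of 2), genes whose mean reached 10 CPM over the tumours were kept, and the 500 with the largest standard deviation (SD) over the 9 tumours were taken. Of 54658 genes in the files 10614 had that mean, so the 500 were 4.71% of the genes kept. Because the same values chose the genes, every level below is a description, and no test was made of the differences between tumours.

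RNA was sequenced from mammary tumours of female mice with the genotype Trp53R245W/+, in which 1 allele of the tumour suppressor p53 carries a missense change, on a C57BL/6J X BALB/cJ F1 hybrid background. Genotype, sex and background were the same in all 9 tumours, and per the title of the series the change was somatic. Ages are not in the labels, and neither is whether any mouse gave more than 1 tumour. The study also sequenced 3 libraries of wild-type mammary epithelium, which enter nothing below. The labels number the tumours 1, 4, 5, 14, 17, 20, 21, 24 and 27, and each was 1 library.

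The mammary gland holds an inner layer of luminal cells, among them hormone-sensing cells and the progenitors of milk-secreting cells, and an outer layer of basal or myoepithelial cells that contract to eject milk. Luminal progenitors are marked by transcription factors such as Elf5, Ehf and Sox10, secretory cells by caseins, and basal cells by keratins 5 and 14, p63 and smooth muscle proteins. A tumour sample also holds fibroblasts, vessels, fat and immune cells, and in bulk RNA fewer cells of a type and less RNA per cell cannot be told apart. All 9 tumours carried the markers of simple epithelium that the tissue label implies. The keratin genes Krt8 and Krt18 ranged from 201 to 1608 CPM and from 185 to 1891 CPM, and Epcam, an epithelial adhesion molecule, ranged from 447 to 1813 CPM.

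Library totals ran from 19695318 to 33600076 gene counts. Tumour 4 stood apart in its RNA: 22.6% of its gene counts lay in the small RNA gene Rn7sk (1.76% to 5.26% in the other 8), 11.2% in mitochondrial genes and 52.0% of its alignments were not unique. It was the lowest tumour in 29.5% of the genes kept, yet in 7.4% of the 500. Counting alone would give a median SD of 0.140 among the 500 and at most 0.761, whereas their measured SD ran from 1.74 to 4.05 with a median of 2.16, and the median over all genes kept was 0.65.

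**Figure D1:**
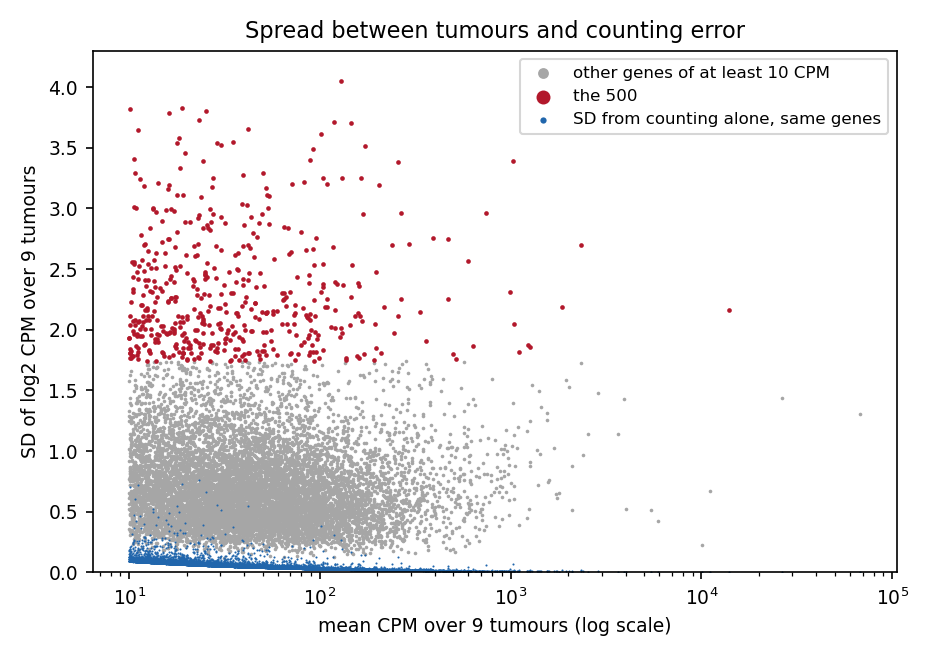
Spread of each gene over 9 tumours. The x axis is the mean CPM (log scale) and the y axis the SD of log2 CPM. Red points are the 500, grey points the other genes kept, and blue points the SD that counting alone gives the same genes. The 500 lie above 1.74 at every level of expression, and counting error stays at or below 0.761 for them.

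The threshold cut through a continuous range. Galnt6, Ifit3 and Wdr31 were the last genes inside it, the last with an SD of 1.740 and levels from 4.79 to 139 CPM, and Gm43305, Mdk and Klhl13 the first outside it, with SDs of 1.740, 1.737 and 1.737. The gap between the lowest and the highest tumour had a median of 6.82 on the log2 scale among the 500. In 266 of the 500 at least 1 tumour was below 1 CPM. A gene could reach the mean of 10 CPM through 1 tumour alone, as Reg3g, Fgb and Myh15 below did. A single high tumour in such a gene follows in part from the filter. A count of 0 allows up to 3 counts, which is 0.245 CPM in tumour 4 and 0.0932 to 0.118 CPM in the others; these limits cover counting error only.

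Tumours contributed unequally. Tumour 1 was the lowest in 230 of the 500 (46%, against 11.1% of all genes kept). There 248 of the 500 were at least 4-fold below their median, against 460 of all 10614 genes kept. Tumour 24 was the lowest in 97 (19.4% against 10.2%). The other tumours were the lowest in fewer: tumour 27 in 41 (8.2% against 5.34%), tumour 4 in 37, tumour 5 in 28 (5.6% against 4.09%), tumour 20 in 26 (5.2% against 11.3%), tumour 14 in 25 (5% against 7.19%), tumour 21 in 11 (2.2% against 16.7%) and tumour 17 in 5 (1% against 4.63%). The highest tumour was more evenly spread. It was tumour 4 in 66 (13.2% against 19.1% of genes kept), tumour 1 in 65 (13% against 19.9%), tumour 17 in 60 (12% against 7.09%), tumour 5 in 58 (11.6% against 8.93%), tumour 14 in 47 (9.4% against 6.35%) and tumour 24 in 46 (9.2% against 13.2%). Tumours 20 and 21 were each the highest in 35 (7% against 9.64% and 6.43%). Tumour 27 was the highest in 88 (17.6% against 9.3% of genes kept) and had the most genes at least 4-fold above their median, 133. Across the tumours the number of such genes ran from 59 in tumour 21 to that 133. Over all 10614 genes kept the order differed: 534 were as far above in tumour 4, 347 in tumour 1 and 254 in tumour 27. Tumour 21 had 213 and tumour 14 the fewest, 107. A single tumour far from the other 8, as marked by Dixon's ratio at 95%, was seen in 63 of the 500 (12.6%), about the share in all genes kept (13.2%). Of these 31 had 1 high tumour and 32 had 1 low tumour, and the low one was tumour 1 in 29.

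**Figure D2:**
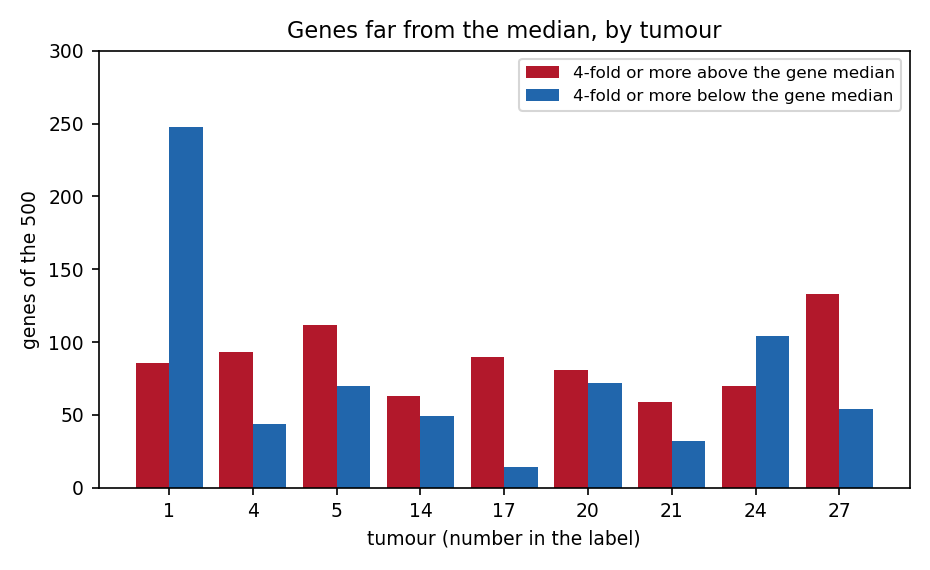
Number of the 500 genes at least 4-fold above (red) or below (blue) their median over 9 tumours, by tumour. Tumour 1 has 248 genes far below the median and tumour 27 has 133 far above it. Tumour 17 has 14 far below. Over all 10614 genes kept these numbers are 460, 254 and 30.

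Clustering by correlation over the 9 tumours (average linkage, cut at a distance of 0.5) placed 418 of the 500 in 10 groups of at least 10 genes, and 82 lay outside them. The groups are numbered by size, and the distance of a group is the median over its genes of log2 CPM minus the gene's own median. Since the genes and the groups come from the same values, the groups describe these tumours only. Hand-written lists of genes of cell types and pathways, 42 in all, were read beside the groups: 134 of the 500 were on a list, which is 19.9% of the 673 listed genes kept, and 366 were on none. Genes of milk (13 of 17 kept), B and plasma cells (7 of 8), secretory glands (6 of 8) and luminal progenitors (9 of 14) had the largest shares among lists with at least 8 genes kept. The background share was the 4.71% given above. Since the lists were written with earlier results of these data known, shares above it are a description only.

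**Figure D3:**
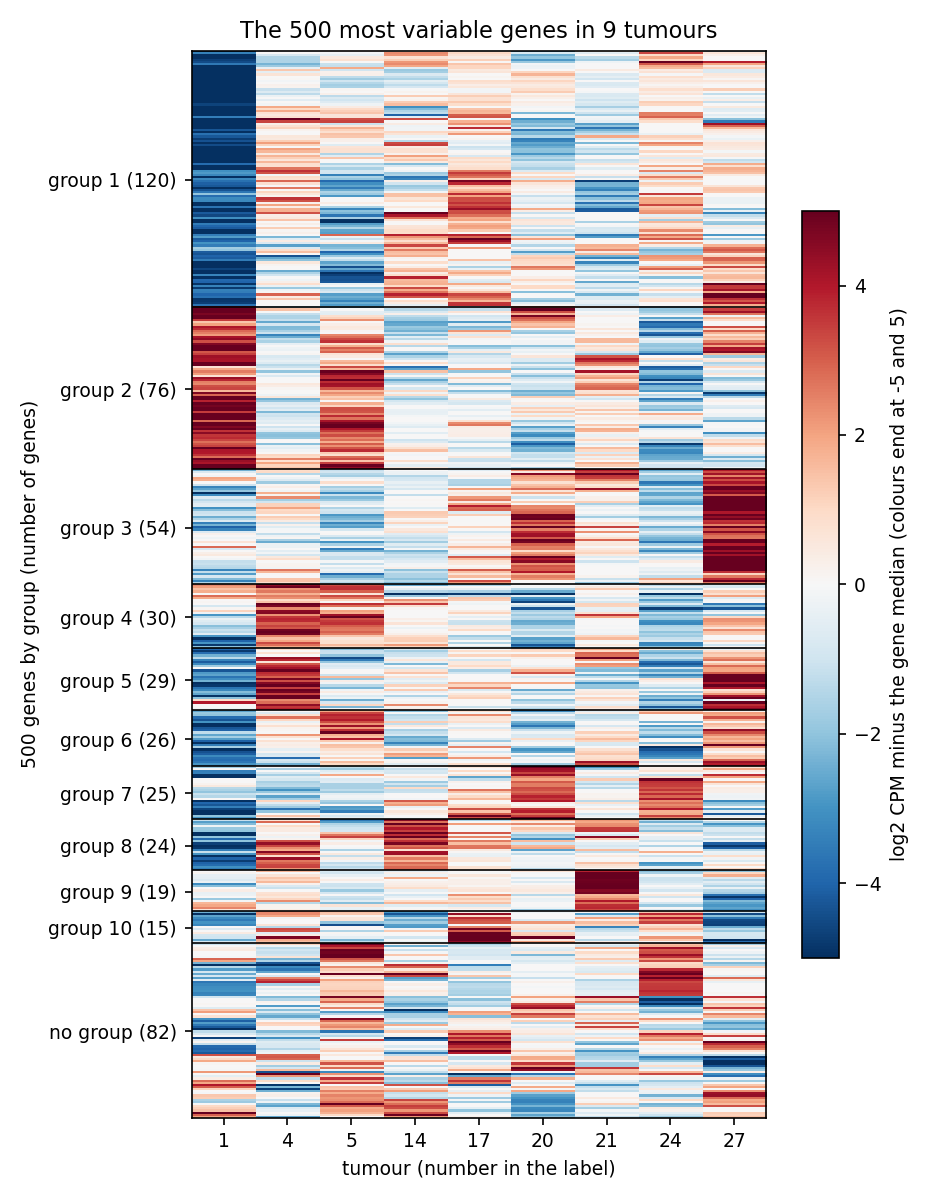
Level of the 500 genes (rows, ordered by group, with the number of genes) in 9 tumours (columns), as log2 CPM minus the gene's median. Red is above and blue below the median, with colours ending at -5 and 5. Group 1 is blue in tumour 1, group 2 is red in tumours 1 and 5, group 3 in tumours 27 and 20, and group 9 in tumour 21.

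The largest group, of 120 genes, was low in tumour 1 and held some luminal progenitor and secretory genes. In tumour 1 the median distance was -4.85, 117 of the 120 were at least 4-fold below their median and 108 were the lowest of all tumours. Their highest level was spread over tumours, with 36 in tumour 17, 22 in tumour 27 and 20 in tumour 14. Sntb1, Ckmt1, Ttpa, Gm20275 and Tfap2c followed the group's mean most closely. Of the 9 luminal progenitor genes among the 500, Ehf, Sox10, Wfdc18 and Pglyrp1 lay in this group and the others elsewhere. In tumour 1, 5 of the 9 were at least 4-fold below their median and 1 was at least 4-fold above it.

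Ehf (chr2:103263433-103303278, GRCm38), an ETS family factor of epithelial cells, had 3.96 CPM in tumour 1, a median of 688 CPM and 1098 CPM in tumour 5. The other 8 tumours lay at or above 126 CPM. Elf5, the ETS factor that directs alveolar cell fate, had 1.76 CPM in tumour 1, 160 CPM at the median and 396 CPM in tumour 14. Sox10, a factor of progenitor and neural crest cells (chr15:79154908-79165240), had 1.37 CPM in tumour 1 and 90.7 to 359 CPM in the others. For each of these factors tumour 1 lay below all others by a wide gap. Tfap2c, an AP-2 family factor of luminal cells, had 0.957 CPM there and at least 61.5 CPM elsewhere, with the highest level of 172 CPM in tumour 17. Wfdc18, a secreted protein of progenitor cells, had 2.11 CPM in tumour 1, 592 CPM at the median and 2479 CPM in tumour 4. Prlr, the prolactin receptor, ran from 1.31 CPM in tumour 1 through a median of 91.2 CPM to 694 CPM in tumour 27.

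Simple epithelial genes as a list were not low in tumour 1. Of 28 kept genes of simple epithelium and junctions 5 were among the 500, of which 1, Cldn8, belonged to the largest group and was at its lowest in tumour 1. The list's score (mean log2 CPM minus gene median) in tumour 1 was 0.29, beside -2.20 for luminal progenitors and -3.80 for milk. The luminal progenitor score rested on the genes chosen for their spread: the 5 kept genes of that list outside the 500 had -0.05 in tumour 1. Tumour 1 had 1401 CPM of Krt8 and 1255 CPM of Epcam, the third and the second highest levels. The list of regulators and markers of epithelial-mesenchymal transition had 1 of its 16 kept genes in the 500, and its score was 1.37 in tumour 1 and 1.78 in tumour 21. Leaving out tumour 1, 62 of the 120 genes of the group stayed among the 500.

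Milk genes varied beyond tumour 1. Csn3, kappa-casein (chr5:87925579-87932665), had 1.76 CPM in tumour 1, 30.9 CPM in tumour 21, a median of 380 CPM and 4963 CPM in tumour 17. Lalba, alpha-lactalbumin, the regulatory subunit of lactose synthase, had 0.223 CPM in tumour 1, 5.46 CPM at the median and 644 CPM in tumour 17. Tumour 17 thus held the highest level of both. Pigr, the receptor that carries immunoglobulin A into milk, was highest in tumour 27 (328 CPM, median 17.3 CPM, lowest 0.255 CPM in tumour 1), and Folr1, a folate receptor, in tumour 17 (214 CPM, median 16.8 CPM, lowest 0.191 CPM in tumour 1). Among all 17 kept milk genes the score ran from -3.80 in tumour 1 and -1.70 in tumour 20 to 1.43 in tumour 14 and 1.54 in tumour 17. The 4 milk genes that were not among the 500 had -1.53 in tumour 1 and -1.69 in tumour 20.

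Some genes of cartilage, and Car6 of the gland list, lay in the same group. Col9a1, a chain of cartilage collagen IX, had 0.447 CPM in tumour 1, a median of 123 CPM, 708 CPM in tumour 24 and 1001 CPM in tumour 17. Its partner chains Col9a2 and Col9a3 were lowest in tumour 1 as well, at 1.40 and 2.81 CPM, with medians of 94.4 and 142 CPM. Of 13 cartilage and bone genes kept 8 were among the 500 (5 without tumour 1), some of them in other groups, and the list's score was -3.46 in tumour 1 against -1.29 in the next lowest, tumour 5. Car6, a carbonic anhydrase secreted in saliva and milk, had 1200 CPM in tumour 14, 134 CPM in tumour 17, 14.01 CPM at the median and 0.702 CPM in tumour 1. Fgb, the beta chain of fibrinogen, had 885 CPM in tumour 27, at most 8.23 CPM in the others and 0 counts in tumour 1. Oxtr, the oxytocin receptor of myoepithelium, had 184 CPM in tumour 14, a median of 12.6 CPM and 0.160 CPM in tumour 1.

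**Figure D4:**
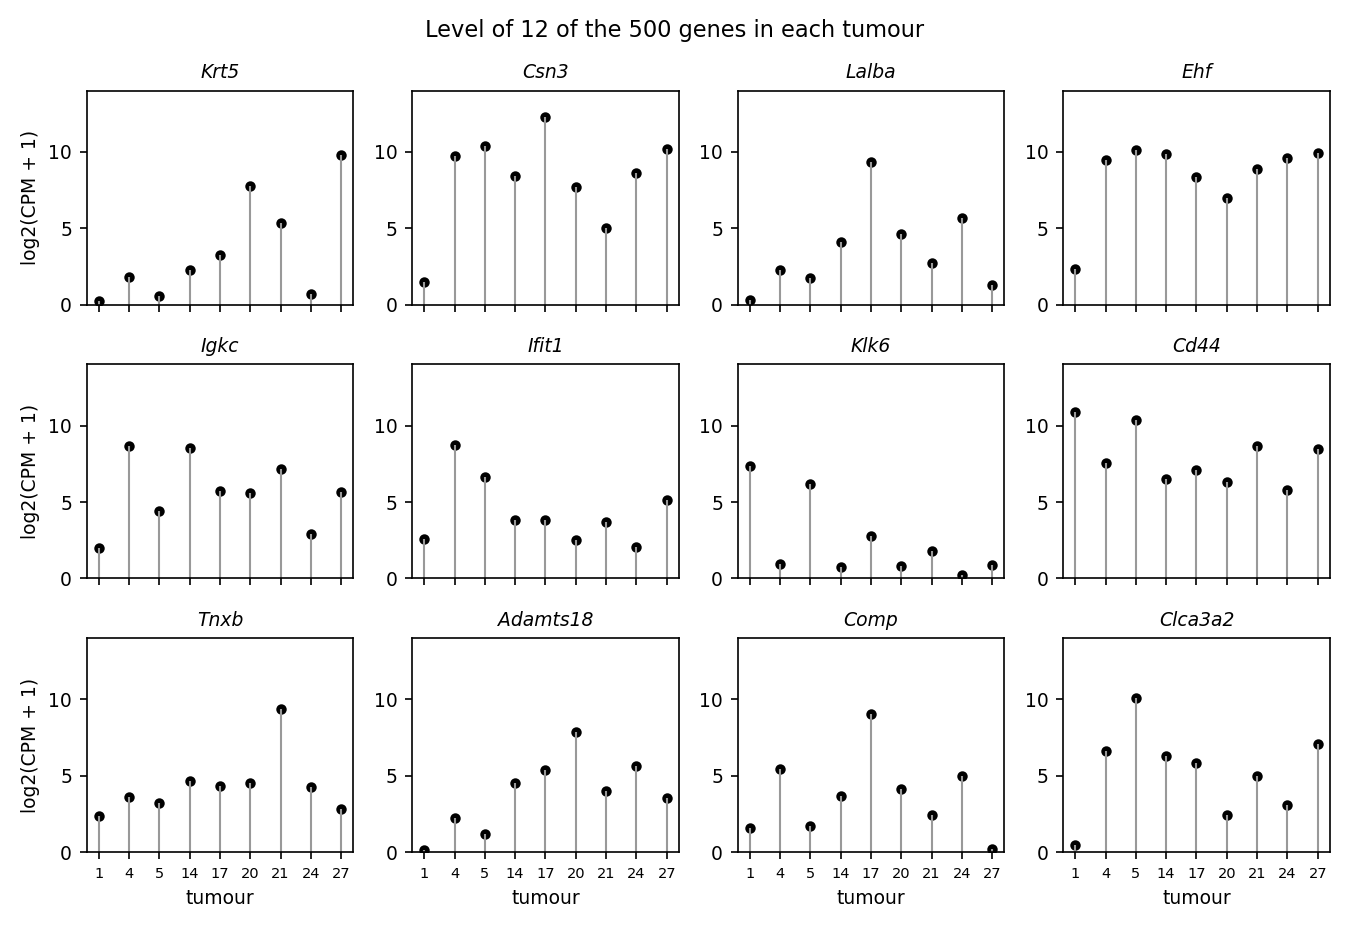
Level of 12 of the 500 genes in each of 9 tumours, as log2(CPM + 1); each point is 1 library. Csn3, Lalba and Ehf are lowest in tumour 1, Krt5 is highest in tumour 27, Tnxb in tumour 21, Comp in tumour 17 and Ifit1 in tumour 4.

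A smaller part of the milk programme, with immunoglobulin genes, formed a separate group of 24 genes. Its median distance was 3.14 in tumour 14, the highest in 14 of the 24, 2.23 in tumour 4 and -3.46 in tumour 1. The caseins Csn1s1, Csn1s2a and Csn2 belonged to it and are neighbours of Csn3 on chromosome 5. Csn1s1, alpha-s1-casein, had 0.160 CPM in tumour 1, a median of 18.9 CPM, 163 CPM in tumour 17 and 882 CPM in tumour 14. Csn2, beta-casein, had 0.0638 CPM in tumour 1, 5.02 CPM at the median and 66.1 CPM in tumour 14. Csn1s2a, another calcium-binding casein, had 51.1 CPM in tumour 14, 39.8 CPM in tumour 4, a median of 1.85 CPM and 0 counts in tumour 1. All 4 caseins were lowest in tumour 1, and the 3 of this group were highest in tumour 14 whereas Csn3 was highest in tumour 17.

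Because the caseins of this group varied together, the 250 bases before their RefSeq starts (GRCm38.p6) were searched for TTCNNNGAA, the core of the site that STAT factors such as the prolactin effector STAT5 bind. It was sought on both strands; the core reads the same on either. Csn1s1 and Csn2 each held 1 match, shown in capitals, where 8.13% of 27025 promoters in the table held at least 1. Of 16 genes of the group with an entry these were the 2 with a match, 12.5%; Csn1s2a, the other casein of the group, had none. The share was higher in another group, the 29 genes of tumours 4 and 27, at 26.3%. Csn1s1 lies at chr5:87665958-87666207 on the plus strand and Csn2 at chr5:87699426-87699675 on the minus strand.
Csn1s1: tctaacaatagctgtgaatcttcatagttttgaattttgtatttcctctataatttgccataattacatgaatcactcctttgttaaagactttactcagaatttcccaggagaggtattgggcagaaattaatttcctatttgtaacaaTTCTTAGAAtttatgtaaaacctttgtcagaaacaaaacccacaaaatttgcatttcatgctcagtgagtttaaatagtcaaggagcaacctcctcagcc
Csn2: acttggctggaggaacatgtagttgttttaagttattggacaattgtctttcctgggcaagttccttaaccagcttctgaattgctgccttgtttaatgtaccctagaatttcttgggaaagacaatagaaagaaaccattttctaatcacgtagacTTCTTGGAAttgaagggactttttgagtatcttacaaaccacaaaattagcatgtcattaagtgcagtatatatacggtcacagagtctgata
The match began 100 bases before the start of Csn1s1 and 93 bases before that of Csn2. A match of letters is a description and not evidence of binding.

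All 6 immunoglobulin constant genes that were kept were among the 500. Igkc, the kappa light chain constant region (chr6:70726435-70726966), had 3.00 CPM in tumour 1, 6.497 CPM in tumour 24, a median of 50.2 CPM, 366 CPM in tumour 14 and 395 CPM in tumour 4. Ighm, the constant region of IgM, had 317 CPM in tumour 4, 291 CPM in tumour 14, a median of 42.7 CPM and 6.17 CPM in tumour 5. Ighg1, a heavy chain of IgG, had 110 CPM in tumour 14 and at most 11.5 CPM in the others, with 0.212 CPM in tumour 27. Jchain, which joins IgA and IgM into polymers, was highest in tumour 4 (94.6 CPM) and tumour 14 (51.3 CPM), with a median of 9.26 CPM and 0.574 CPM in tumour 1. Tumours 14 and 4 thus held the highest levels of Igkc, Ighm and Jchain, and tumour 14 that of Ighg1. Over the whole B and plasma cell list the score was 2.76 in tumour 14, 1.79 in tumour 21 and 1.13 in tumour 4, and without tumour 14 the list had 3 genes among the 500 where it had 7. The B cell genes Cd79a and Ms4a1 stayed below 10 CPM on average and were not kept. They were highest in tumour 21 (9.62 and 9.58 CPM) and tumour 14 (4.69 and 9.41 CPM), with medians of 0.496 and 1.23 CPM.

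Cfd and Car3, genes of fat cells, belonged to the same group. Cfd, the adipocyte protease adipsin, had 52.4 CPM in tumour 4, 33.6 CPM in tumour 14, a median of 5.04 CPM and 0.0638 CPM in tumour 1. Car3, a carbonic anhydrase of fat and muscle, had 42.8 CPM in tumour 14, a median of 4.95 CPM and 0.0957 CPM in tumour 1. Adipoq, the fat hormone adiponectin, which was not kept, had 12.7 CPM in tumour 4, 7.83 CPM in tumour 14 and 0 counts in tumour 1. Summed over all genes of the adipocyte list, tumours spanned 230 CPM (tumour 1) to 1380 CPM (tumour 14). Of 13 kept adipocyte genes 3 were among the 500, and the other 10 had scores of 0.68 in tumour 14, 0.38 in tumour 17 and 0.00 in tumour 4. The part of fat and of plasma cells in these levels was not tested.

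The second group, of 76 genes, was high in tumours 1 and 5. Its median distance was 4.07 in tumour 1, the highest in 58 genes, and 2.46 in tumour 5, the highest in 14, while tumour 24 was the lowest in 42 (median -1.87). Clcf1, Cd44, Gpr39, Gprc5a and Klk6 followed its mean most closely. Cd44, a receptor for hyaluronan (chr2:102811141-102901665), had 1901 CPM in tumour 1, 1306 CPM in tumour 5, a median of 187 CPM and 53.1 CPM in tumour 24. Hmga2, a chromatin protein of embryonic cells, had 201 CPM in tumour 1, 60.1 CPM in tumour 5 and 0.991 to 10.99 CPM in the other 7. Its relative Hmga1 had 453 and 82.3 CPM in these tumours, a median of 12.8 CPM and 4.92 CPM in tumour 27. Levels in tumours 1 and 5 thus exceeded all others in each of these 3 genes.

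The group also held secreted proteases and ligands. Klk6, a kallikrein protease (chr7:43824499-43832030), had 160 CPM in tumour 1, 72.4 CPM in tumour 5, a median of 0.899 CPM and 0.185 CPM in tumour 24. Klk8, its neighbour in the kallikrein family, had 98.1 and 43.5 CPM in these tumours and at most 5.15 CPM in the others. Tmprss11e, a membrane serine protease of squamous epithelium, had 266 CPM in tumour 1 and at most 3.95 CPM in the others. Tumour 1 was thus alone for Tmprss11e and joined by tumour 5 for the kallikreins. Squamous genes as a list did not follow Tmprss11e. Of 12 kept, the 6 among the 500 had a score of -1.76 in tumour 1 and 1.89 in tumour 27. The other 6 had 1.26 and 1.01 in these tumours. Mmp9, a gelatinase, had 356 CPM in tumour 1, 35.7 CPM in tumour 21, a median of 5.54 CPM and 1.63 CPM in tumour 20. Clcf1, a cytokine of the interleukin-6 family, had 145 CPM in tumour 1, 20.7 CPM in tumour 5, a median of 2.16 CPM and 0.369 CPM in tumour 24. Ptgs2, the prostaglandin synthase COX-2, was highest in tumour 5 (123 CPM), then in tumour 1 (51.4 CPM), with a median of 6.99 CPM and 1.06 CPM in tumour 27.

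Wnt and surface genes completed it. Wnt7b, a Wnt ligand, had 348 CPM in tumour 1, 281 CPM in tumour 5, a median of 21.3 CPM and 2.36 CPM in tumour 24. Notum, a Wnt inactivating enzyme, had 61.7 CPM in tumour 5, 26.9 CPM in tumour 1, a median of 1.88 CPM and 0 counts in tumour 24. Of 11 kept Wnt targets and regulators these were the 2 among the 500. Msln, the surface protein mesothelin, had 781 CPM in tumour 1, 27.1 CPM in tumour 27 and a median of 1.43 CPM. Cldn4, a tight junction protein, had 693 CPM in tumour 1, 328 CPM in tumour 5, a median of 66.8 CPM and 6.90 CPM in tumour 24. Areg, the EGF receptor ligand amphiregulin, was instead highest in tumour 27 (66.6 CPM), ahead of tumours 1 (23.1 CPM) and 5 (20.6 CPM), with a median of 2.61 CPM. Hhip, which binds Hedgehog ligands, had 220 CPM in tumour 5, at most 5.15 CPM in the others and 0 counts in 3 tumours.

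In the 250 bases before RefSeq starts, TGAGTCA, the site of AP-1 factors, occurred on either strand in 7 of the 46 genes of this group with an entry, 15.2%, and in 5.16% of all promoters. The fourth group, of 30 genes, had a like share, 15%. Leaving out tumour 1, 30 of the 76 genes stayed among the 500.

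Some basal and myoepithelial genes belonged to the third group, of 54 genes, carried by tumours 27 and 20. In tumour 27 the median distance was 4.45, 53 genes were at least 4-fold above their median and 42 had their highest level. In tumour 20 the median was 2.54 and 37 were at least 4-fold above. Of 26 kept genes of the basal list 14 were among the 500, and Krt5, Krt15, Col17a1, Trp63, Cnn1, Myh11 and Krt17 lay in this group. The other basal members lay in other groups or in none. The group also held Tspan8 and Hey1 of the luminal progenitor list, and Gp2, Reg3g and Dcn. Summed over the basal list, levels were 9653 CPM in tumour 27, 6852 CPM in tumour 1 and 5085 CPM in tumour 20. Krt5, keratin 5, had the largest SD of all, 4.05 (chr15:101707070-101712898): 0.160 CPM in tumour 1, a median of 3.76 CPM, 39.4 CPM in tumour 21, 220 CPM in tumour 20 and 891 CPM in tumour 27. Krt15, a keratin of basal progenitors, had 1036 CPM in tumour 27, at most 9.57 CPM in the others and 0.0957 CPM in tumour 1. So tumour 20 carried Krt5 at a high level but not Krt15.

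Some basal genes were high in both tumours, while Lama3 and Dsg3, adhesion genes of the basal list, lay in the group of tumours 1 and 5. Trp63, the gene of the basal factor p63, had 311 CPM in tumour 20, 232 CPM in tumour 27, a median of 10.9 CPM and 1.96 CPM in tumour 5. Col17a1, a hemidesmosome collagen, had 201 CPM in tumour 27, 134 CPM in tumour 20, a median of 1.95 CPM and 0.295 CPM in tumour 24. Fgfr2, a fibroblast growth factor receptor, had 432 CPM in tumour 20, 237 CPM in tumour 27 and at most 16.01 CPM in the other 7. In each of these genes tumours 20 and 27 stood above all others. Jag2, a Notch ligand, had 159 and 76.9 CPM in tumours 20 and 27, a median of 8.67 CPM and 3.68 CPM in tumour 4. Ntrk3, a neurotrophin receptor, had 151 CPM in tumour 27, 35.7 CPM in tumour 20, a median of 1.47 CPM and 0.606 CPM in tumour 1. Fgf1, a fibroblast growth factor, had 268 CPM in tumour 27, a median of 31.8 CPM and 3.64 CPM in tumour 1.

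Myh11 and Cnn1, contractile genes, were highest in tumour 27 too. Myh11, smooth muscle myosin, had 1059 CPM in tumour 27, 140 CPM in tumour 20, a median of 17.9 CPM and 6.61 CPM in tumour 1. Cnn1, calponin, had 325 CPM in tumour 27, 31.4 CPM in tumour 20 and at most 3.92 CPM in the others. Acta2, smooth muscle actin, lay outside the 500 (SD 1.51) with 969 and 980 CPM in these tumours and at most 159 CPM elsewhere. Vessel walls express contractile genes too. None of the 22 kept genes of endothelium and pericytes was among the 500, and the list's score was highest in tumour 27 (0.60, against 0.18 in tumour 20), as was its sum (1713 CPM, against 410 to 1097 CPM in the others). The part of vessels in the contractile levels was not tested. Among the 12 kept basal genes outside the 500 the score was 1.36 in tumour 27 and 0.81 in tumour 20. Leaving out tumour 27, 15 of the 54 genes stayed among the 500.

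Keratins of the group's margin differed from Krt5. Krt17 had 405 CPM in tumour 27, a median of 23.2 CPM and 1.81 CPM in tumour 24. Krt14, the partner of keratin 5, lay in no group: it was highest in tumour 5 (263 CPM) and tumour 21 (182 CPM), with a median of 72.1 CPM, and tumour 24 was far below the others at 1.03 CPM. Krt19, a luminal keratin, had 1518 CPM in tumour 27, 397 CPM in tumour 5, a median of 72.0 CPM and 10.8 CPM in tumour 20. Tumour 24 was thus low in Krt5, Krt14 and Krt17 together.

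Tumour 27 also carried genes of secretory glands. Gp2, a glycoprotein of pancreatic and salivary granules (chr7:119442537-119459285), had 162 CPM in tumour 27, 7.03 CPM in tumour 20, a median of 0.0957 CPM and 0 counts in 3 tumours. Reg3g, a secreted antibacterial lectin, had 373 CPM in tumour 27 and at most 3.03 CPM in the others. Muc16, a mucin, had 61.9 CPM in tumour 27, 20.1 CPM in tumour 1 and a median of 1.18 CPM. The score of the gland list, of which 6 of 8 kept genes were among the 500, was 3.26 in tumour 27 and 1.30 in tumour 17. The 2 kept gland genes outside the 500 had 1.29 in tumour 4 and 0.69 in tumour 27, and without tumour 27 the list had 3 genes among the 500.

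Some interferon-stimulated genes belonged to the fourth group, of 30 genes, carried by tumours 4 and 5. Of the 8 on the list among the 500, Ifit1, Isg15, Ifit3, Ifit3b, Usp18 and Rtp4 lay there. Ifi27l2a and Iigp1 lay in other groups. Tumour 4 was the highest in 7 of the 8 and tumour 27 in 1. Ifit1, Isg15, Ifit3, Apol9b and Usp18 followed the mean of the fourth group most closely. Of its 30 genes 24 were annotated as protein-coding, and it also held predicted genes such as Gm22513. Interferons act through STAT and IRF factors on genes that restrict viruses. The group's median distance was 3.04 in tumour 4, the highest in 21 genes, 2.68 in tumour 5, -1.61 in tumour 20 and -1.84 in tumour 24. Ifit1, which binds viral RNA (chr19:34640871-34650009), had 3.14 CPM in tumour 24, a median of 12.9 CPM, 98.9 CPM in tumour 5 and 415 CPM in tumour 4. Isg15, a ubiquitin-like protein, had 150 CPM in tumour 4, 31.3 CPM in tumour 5, a median of 5.20 CPM and 1.73 CPM in tumour 24. Usp18, the protease that removes it, had 116 CPM in tumour 4, 76.6 CPM in tumour 5, a median of 8.35 CPM and 2.21 CPM in tumour 24. All 3 had their highest levels in tumours 4, 5 and, behind them, 27.

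The signal reached beyond the 500. Of 35 kept interferon-stimulated genes 8 were among the 500, and the other 27 had scores of 1.91 in tumour 5, 1.70 in tumour 4, 0.72 in tumour 27, -1.24 in tumour 20 and -1.57 in tumour 24. The 8 rested on tumour 4: without it none was among the 500, and 16 of the 30 genes of the group stayed, whereas without tumour 1 the list had 15. Rtp4, an interferon-stimulated chaperone, had 416 CPM in tumour 4, 89.7 CPM in tumour 5, a median of 14.7 CPM and 6.09 CPM in tumour 24. Ifit3, a partner of Ifit1, had 99.4 CPM in tumour 4, 73.5 CPM in tumour 5 and a median of 11.4 CPM. Tumour 5, whose RNA did not stand apart as that of tumour 4 did, held the second highest level of both. The part of the unusual RNA of tumour 4 in its levels was not tested.

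Promoters of 3 of these genes are shown because they hold matches to the motif of the interferon response element. The motif is GAAA, any 2 bases and GAAA again. It was sought on both strands in the 250 bases before RefSeq starts (GRCm38.p6), and matches are in capitals. It occurred in 3.46% of all 27025 promoters and in 7 of the 20 genes of this group with an entry, namely Ifit1, Ifit3, Ifit3b, Isg15, Apol9a, Apol9b and Spp1. Ifit3 and Ifit3b are near copies, as are Apol9a and Apol9b, so these 7 are not 7 independent promoters and the reads of such copies may be split between them. Ifit1 lies at chr19:34640639-34640888 on the plus strand, Ifit3 at chr19:34583279-34583528 on the plus strand and Isg15 at chr4:156200819-156201068 on the minus strand.
Ifit1: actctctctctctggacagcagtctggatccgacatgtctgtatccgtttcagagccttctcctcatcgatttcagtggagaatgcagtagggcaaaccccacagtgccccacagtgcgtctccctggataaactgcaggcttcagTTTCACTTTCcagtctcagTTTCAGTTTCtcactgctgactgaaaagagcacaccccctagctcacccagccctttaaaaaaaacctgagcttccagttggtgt
Ifit3: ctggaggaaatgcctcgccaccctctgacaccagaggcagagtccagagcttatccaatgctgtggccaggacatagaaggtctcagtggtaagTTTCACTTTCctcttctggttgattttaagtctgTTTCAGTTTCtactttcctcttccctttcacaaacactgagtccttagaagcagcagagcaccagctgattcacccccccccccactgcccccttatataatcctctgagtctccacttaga
Isg15: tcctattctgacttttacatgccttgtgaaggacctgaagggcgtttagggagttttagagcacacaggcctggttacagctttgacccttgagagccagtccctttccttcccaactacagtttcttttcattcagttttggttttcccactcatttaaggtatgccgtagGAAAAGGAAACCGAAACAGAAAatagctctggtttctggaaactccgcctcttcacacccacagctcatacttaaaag
Ifit1 and Ifit3 held 2 matches each, written here as they read on the strand opposite to the motif, and Isg15 held 3 that overlap.

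Myeloid genes lay in the same group. S100a8 and S100a9, the subunits of the neutrophil protein calprotectin, were highest in tumour 4 (118 and 106 CPM), then in tumour 5 (47.4 and 47.6 CPM) and tumour 1 (16.6 and 25.1 CPM), with medians of 3.82 and 4.74 CPM. The neutrophil genes Ly6g and Mpo stayed below 1 CPM in every tumour, and Csf3r, a neutrophil cytokine receptor, was highest in tumours 1 (49.7 CPM) and 5 (46.3 CPM), with a median of 13.5 CPM. Cd14, a co-receptor for bacterial lipopolysaccharide that luminal progenitors also express, had 492 CPM in tumour 4, a median of 130 CPM and 11.7 CPM in tumour 20. Summed over the macrophage list, tumours spanned 1446 CPM (tumour 20) to 6682 CPM (tumour 4), while its score was highest in tumour 21 (1.00, against 0.69 in tumour 4).

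Tumours 4 and 27 shared a group of 29 genes with secreted acute phase and lipid carrier proteins. Its median distance was 3.73 in tumour 4, the highest in 16 genes, 2.83 in tumour 27 and -2.82 in tumour 1. Apod, a lipid carrier (chr16:31296192-31314808), had 823 CPM in tumour 4, 600 CPM in tumour 27, at most 27.9 CPM in the others and 2.81 CPM in tumour 1. Hp, haptoglobin, had 1101 CPM in tumour 4, 656 CPM in tumour 27, a median of 51.0 CPM and 12.5 CPM in tumour 24. Chil1, a chitinase-like protein, had 1230 CPM in tumour 27, 795 CPM in tumour 4, 395 CPM in tumour 17 and a median of 74.4 CPM. Tumours 4 and 27 were the highest in each of these genes. Fgg, the gamma chain of fibrinogen, had 114 CPM in tumour 4, 92.6 CPM in tumour 27 and at most 4.66 CPM in the others. Its partner Fgb, described above, was high in tumour 27 and had 3.84 CPM in tumour 4, so both chains were at high levels together in tumour 27. Gsta3, a glutathione transferase, had 370 CPM in tumour 4 and at most 6.87 CPM in the others. Cited1, a transcriptional regulator of hormone-sensing cells, had 111 CPM in tumour 27, 12.3 CPM in tumour 4 and a median of 0.985 CPM.

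Hormone-sensing genes as a list were highest in tumour 27. Of 10 genes kept, the 4 among the 500 (Cited1, Ly6d, Prlr and Areg) all had their highest level there, and the list's score was 2.30 in tumour 27 against 0.47 in the next, tumour 5. The 6 genes outside the 500 had nearly equal scores in these tumours, 0.78 and 0.76, and without tumour 27 the list had 2 genes among the 500. The receptor genes of the list lay outside the 500: Esr1, the estrogen receptor, had 37.5 CPM in tumour 27 and a median of 3.94 CPM, and Pgr, the progesterone receptor, which was not kept, had 43.9 CPM there and at most 1.81 CPM elsewhere. Foxa1, a factor that opens chromatin for the estrogen receptor, was not kept either, with 45.7 CPM in tumour 27 and at most 2.97 CPM elsewhere. The basal, gland and hormone-sensing list scores were thus all highest in tumour 27, though not every gene was: 6 of the 14 basal members, 4 of the 6 gland members and these 4 had their highest level there.

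**Figure D5:**
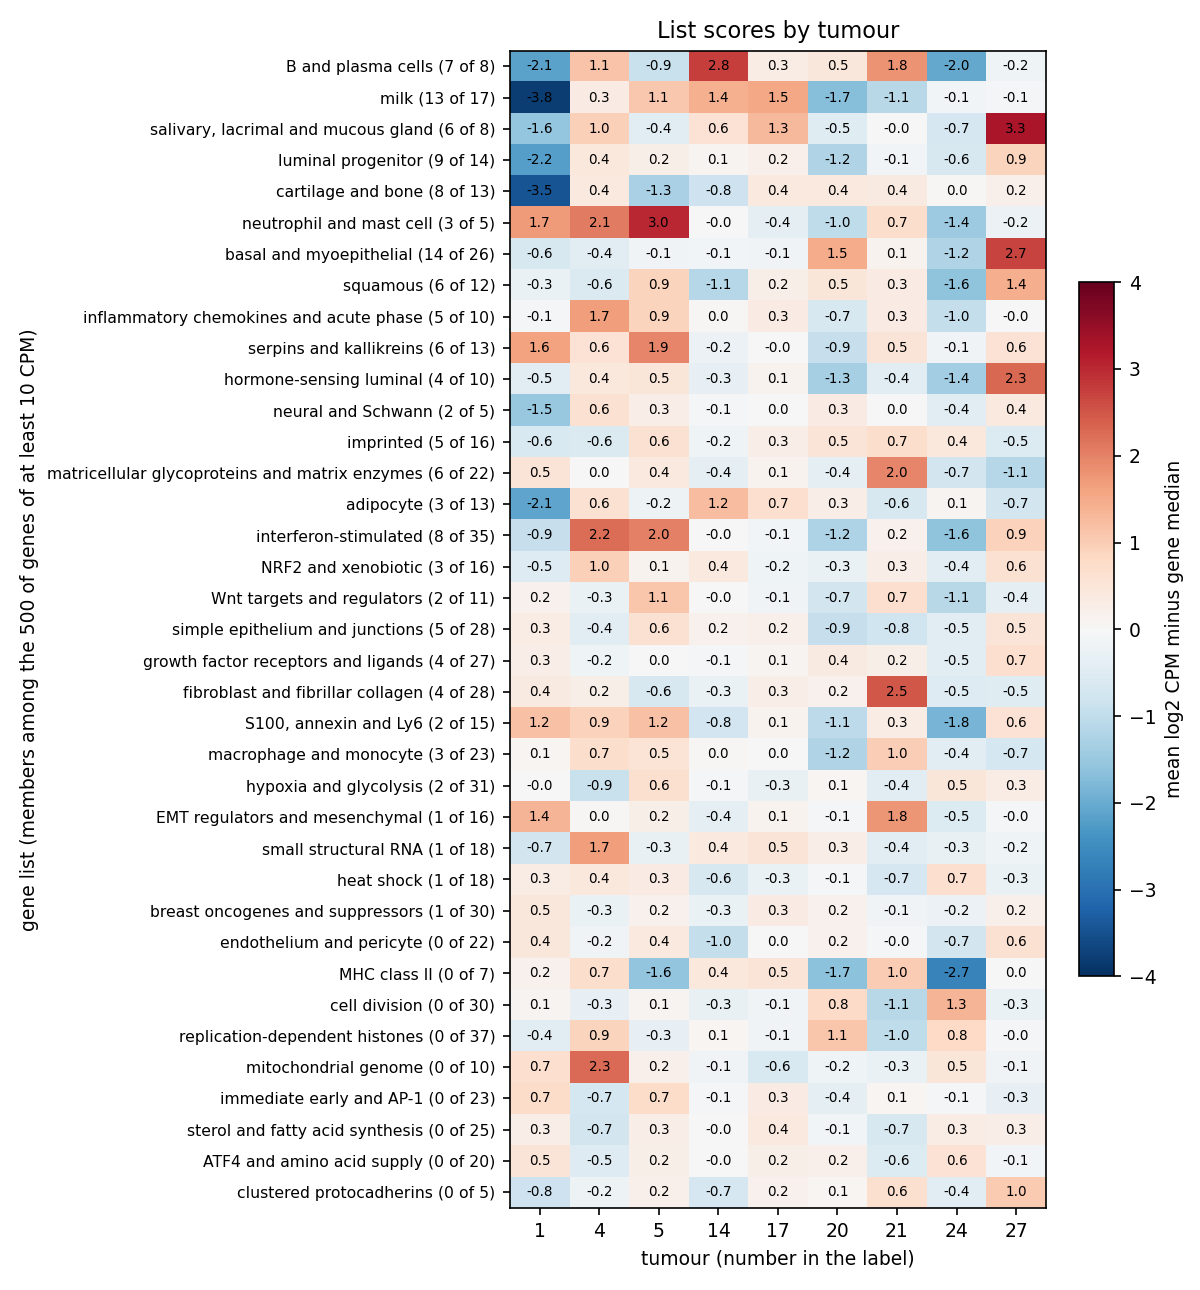
Score of each gene list in 9 tumours, as the mean over kept genes of log2 CPM minus the gene's median, with the number of genes among the 500 of those kept. Basal, gland and hormone-sensing scores are highest in tumour 27, the fibroblast score in tumour 21, and the milk, luminal progenitor and cartilage scores are lowest in tumour 1.

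Fibroblast and matrix genes were carried by tumour 21. The group of 19 genes had a median distance of 4.59 there, and 18 of them had their highest level in that tumour. Tumour 27 had the lowest median, -1.67. Tnxb, the matrix protein tenascin-X (chr17:34670535-34719815), had 656 CPM in tumour 21 and 4.08 to 24.6 CPM in the other 8. Tnn, tenascin-N, had 328 CPM in tumour 21 and at most 21.3 CPM elsewhere. Dpt, dermatopontin of the dermal matrix, had 239.7 CPM in tumour 21 and at most 9.60 CPM elsewhere. Sfrp4, a secreted Wnt binding protein, had 98.3 CPM there and at most 2.58 CPM elsewhere. Il1rl1, the receptor of interleukin-33, had 108 CPM there and at most 2.62 CPM elsewhere. In all 5 genes tumour 21 stood alone. Dpt, Sfrp4 and Il1rl1 reached the mean of 10 CPM only through it, and Tnxb, Sfrp4 and Il1rl1 were named for their gap there. Standing alone thus follows in part from the filter and the naming.

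Collagen genes followed with smaller steps. Col1a1, the main chain of collagen I, had 5418 CPM in tumour 21, 2164 CPM in tumour 1, a median of 397 CPM and 63.1 CPM in tumour 27. Lum, the collagen-binding proteoglycan lumican, had 285 CPM in tumour 21, 64.7 CPM in tumour 4, a median of 19.8 CPM and 4.47 CPM in tumour 24. Of 28 kept genes of the fibroblast list 4 were among the 500, and the other 24 had a score of 2.24 in tumour 21 and at most 0.50 in any other tumour. The list summed to 47989 CPM in tumour 21 and to 4878 to 12990 CPM in the others. Krt8 and Krt18 were at their lowest in tumour 21. Whether tumour 21 held more fibroblasts, or more matrix RNA in each, was not tested. Leaving it out, 1 of the 19 genes and none of the fibroblast list stayed among the 500.

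Tumours 20 and 24 shared a group of 25 genes. The median distance was 3.29 in tumour 20 and 2.74 in tumour 24, and -2.01 in tumour 1. Adamts18, a matrix protease (chr8:113697126-113848738), had 228 CPM in tumour 20, 49.7 CPM in tumour 24, a median of 14.8 CPM and 0.128 CPM in tumour 1. Slc1a3, a glutamate transporter, had 127 CPM in tumour 20, 37.9 CPM in tumour 17, 20.2 CPM in tumour 24, a median of 4.00 CPM and 0.447 CPM in tumour 1. Cdkn1c, the imprinted cell cycle inhibitor p57, had 64.5 CPM in tumour 20 and at most 7.17 CPM in the others. Single tumours dominated others of the group. Myh15, a myosin heavy chain, had 116 CPM in tumour 20 and at most 0.814 CPM elsewhere, and Ccdc136, a coiled-coil protein, had 551 CPM in tumour 24 and at most 39.9 CPM elsewhere.

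A group of 26 genes was lowest in tumour 1 in 21 and highest in tumour 5 in 11 and in tumour 27 in 9. Clca3a2, a calcium-activated chloride channel regulator (chr3:144796559-144819494), had 1066 CPM in tumour 5, 138 CPM in tumour 27, a median of 55.3 CPM and 0.383 CPM in tumour 1. Gabrp, a subunit of the GABA receptor found in epithelia, had 362 CPM in tumour 5, 74.9 CPM in tumour 27, a median of 23.3 CPM and 1.08 CPM in tumour 1. Muc15, a membrane mucin found in milk, had 191 CPM in tumour 14, 146 CPM in tumour 5, a median of 81.4 CPM and 1.15 CPM in tumour 1.

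The smallest group, of 15 genes, was highest in tumour 17 in 9 and lowest in tumour 27 in 9, with median distances of 3.68 and -2.45. Comp, a cartilage matrix protein (chr8:70373558-70382066), had 532 CPM in tumour 17, 43.5 CPM in tumour 4, a median of 11.96 CPM and 0.142 CPM in tumour 27. Col2a1, the main collagen of cartilage, was instead highest in tumour 21 (76.3 CPM) and had 35.6 CPM in tumour 17, which was its median, and 1.31 CPM in tumour 27. Duox1 and its maturation factor Duoxa1, which make hydrogen peroxide, were highest in tumours 24 (113 and 55.4 CPM) and 17 (89.0 and 81.4 CPM), with medians of 6.88 and 8.90 CPM and 0.531 and 0.319 CPM in tumour 27. Alkal2, a ligand of the kinase ALK, had 71.8 CPM in tumour 17, 44.9 CPM in tumour 24, a median of 3.22 CPM and 0 counts in tumour 1. Tumour 17 was thus not alone in these genes.

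Oncogenes were among the 500 at about the share of all genes kept, 4.71%, and growth factor genes at a higher share. Of 30 kept breast oncogenes and suppressors 1 was among the 500, 3.33%. It was Nras, a RAS GTPase (chr3:103058285-103067914), with 4667 CPM in tumour 17 and 68.4 to 286 CPM in the other 8. Of 27 kept growth factor receptors and ligands 4 were among the 500, 14.8%, and 2 without tumour 27: Fgfr2, Ntrk3 and Fgf1, described above, and Met. Met, the receptor of hepatocyte growth factor (chr6:17463800-17573980), had 14730 CPM in tumour 5, 4694 CPM in tumour 24, a median of 242 CPM and 51.8 CPM in tumour 20. Tumours 5 and 24 were the highest, and the next, tumour 14, had 614 CPM.

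Met lay in a run of members along chromosome 6. Between 17065149 and 17720513 (GRCm38) 5 of the 7 genes kept were among the 500, and on average they were 5.14 above their median on the log2 scale in tumour 5 and 3.17 above it in tumour 24. Capza2, a subunit of the actin capping protein, had 6180 CPM in tumour 5, 1995 CPM in tumour 24, a median of 169 CPM and 114 CPM in tumour 20. Tes, a focal adhesion protein, had 7106 CPM in tumour 5, 1110 CPM in tumour 24, a median of 134 CPM and 59.4 CPM in tumour 14. Cav2, a caveolin, had 1157 and 237 CPM in tumours 5 and 24 and a median of 70.2 CPM. DNA was not measured in these files.

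Across the genome, 18 such runs of at least 3 members, each within 250 kb of the next, held 65 of the 500. How many runs any other 500 genes would give was not computed. Some held gene families, among them the 4 caseins on chromosome 5 and keratins 15, 19, 14 and 17 on chromosome 11. Immunoglobulin heavy chains on chromosome 12, Ifit genes on chromosome 19 and S100 genes on chromosome 3 were further families. Others mixed related and unrelated genes or held genes that share no family name. A run of 5 predicted genes at the start of chromosome 9 was of another kind. Gm26870 had 6651 CPM in tumour 24, 1420 CPM in tumour 5, a median of 593 CPM and 62.2 CPM in tumour 1, and on average the 5 genes were 3.57 above their median on the log2 scale in tumour 24 and at -3.19 in tumour 1. Their sequences may share reads, so their levels are uncertain.

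Other members outside the groups were high in 1 or 2 tumours. H19, an imprinted noncoding RNA, had 454 CPM in tumour 5, 90.6 CPM in tumour 24, a median of 18.6 CPM and 2.23 CPM in tumour 1. Nnat, an imprinted membrane protein, had 42.3 CPM in tumour 20, 32.9 CPM in tumour 5, a median of 3.51 CPM and 0.0354 CPM in tumour 27. Pdk4, a kinase that limits glucose oxidation, had 782 CPM in tumour 5 and at most 53.5 CPM elsewhere. Tumour 5 was the highest for H19 and Pdk4, and 5 of 16 kept imprinted genes were among the 500. Alb, serum albumin, had 113 CPM in tumour 14, a median of 8.74 CPM and 0 counts in tumours 1 and 4. Has2, a hyaluronan synthase, had 283 CPM in tumour 20, a median of 20.5 CPM and 2.21 CPM in tumour 24. Ltf, the iron-binding milk and neutrophil protein lactoferrin, had 3211 CPM in tumour 5, 472 CPM in tumour 14, a median of 69.7 CPM and 8.84 CPM in tumour 20. Wfdc12, a protease inhibitor, had 89.7 CPM in tumour 24 and at most 3.43 CPM elsewhere, and Chit1, a chitinase, had 157 CPM in tumour 17 and at most 6.05 CPM elsewhere.

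Several programmes had no member. None of 30 kept cell division genes, 37 histone genes, 22 endothelium and pericyte genes, 23 immediate early genes, 25 sterol and fatty acid synthesis genes or 20 genes of ATF4 and amino acid supply was among the 500. Over all genes kept the share was 4.71%, so lists of these sizes with no member lie near it. Mki67, the proliferation marker, had an SD of 0.96 and ranged between 186 CPM (tumour 21) and 1749 CPM (tumour 24) around a median of 407 CPM. The 7 kept genes of MHC class II, which presents antigen to T cells, had none among the 500 although their score ran from -2.68 in tumour 24 to 1.02 in tumour 21. That list had 3 members at a minimum mean of 20 CPM and with the residual of the SD from its trend on the mean. It also had 3 without tumour 1 and without tumour 27. By type, 89.4% of the annotated members were protein-coding, against 96.6% of the genes kept.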

How the data were processed

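The authors deposited raw counts per gene, whole numbers with no normalization, for each library of TruSeq stranded total RNA. The build was GRCm38, and the tools were HTSeq 0.11.0, TopHat2 2.1.1 and FastQC 0.11.8, per the submitters' processing notes (annotation release and strand setting not given in the sources used here). All 9 tumour libraries were scaled by TMM in edgeR 4.0.16 (R 4.3.3). Mean CPM, SDs, Dixon's ratio, clustering (1 minus Pearson r, average linkage) and list scores were computed in Python 3.11.15 (numpy 2.4.6, pandas 2.3.3, scipy 1.17.1). The ranking by SD, Dixon's ratio and the clustering were checked on simulated counts, in which the tumours differed by planted changes and random scatter only. TMM scaling, the filter on the mean and list scores were not part of that check. CPM of single tumours carry no prior count. Summary counts outside genes stayed out of library sizes. Positions came from GENCODE M21 by symbol (498 of the 500 matched) and promoters from RefSeq (324 matched, 9 motifs searched). Genes were named by rule: the 20 of largest SD, 4 per list, the 5 closest to each group, 3 per tumour and the neighbours of the threshold; Krt14, Krt17, Trp63, Cnn1, Jag2, Csn2, Elf5, Hmga2, Duox1 and some others were chosen after their values were seen. The 500, the lists and the rule were chosen with earlier results of these data known. Alternatives were other scaling, prior counts, filters, measures of spread, clustering settings and leaving out each tumour. A few results are not reported here.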

Additional observations from a re-analysis of the deposited data

Results flagged for a closer look

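Dixon's test at 95%, which marks about 1 in 20 groups by chance, was applied to the 9 values of 95 genes, 42 list scores and 10 group medians, and to the summary values of the tumours. It marked 20 of the genes, 7 of the scores and 2 of the medians, in each of which 1 tumour lay far from the other 8. Some of the genes were named because their highest tumour had a large gap to the next, and others after their values were seen. Several reached the mean of 10 CPM only through their high tumour. The share of genes marked, 21.1%, thus follows in part from that choice and is a description. It was 13.2% over all genes kept and 12.6% among the 500.

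Tumour 1 was far below the others in Elf5 (1.76 CPM), Ehf (3.96 CPM), Sox10 (1.37 CPM), Tfap2c (0.957 CPM) and Wfdc18 (2.11 CPM), and far above them in Tmprss11e (266 CPM). Its median distance in the largest group was -4.85, and its scores were low for cartilage and bone (-3.46), neural and Schwann genes (-1.52) and keratin-associated genes (-3.80, from 2 genes kept). The neural and Schwann score rests on 5 genes kept. The 2 among the 500, Sox10 and S100b, had a mean of -3.64 in tumour 1, and the other 3 had -0.11. Tumour 1 also had by far the most of the 500 at least 4-fold below their median, 248, and the most at their lowest, 230. Over all genes kept 460 were as far below in tumour 1 and 292 in tumour 4.

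Tumour 27 was far above the others in Krt15 (1036 CPM), Reg3g (373 CPM) and Fgb (885 CPM), and in the score of hormone-sensing genes (2.30). Tumour 21 was far above them in Tnn (328 CPM), Tnxb (656 CPM), Dpt (239.7 CPM), Sfrp4 (98.3 CPM) and Il1rl1 (108 CPM), in the median of the fibroblast and matrix group (4.59) and in the fibroblast score (2.49).

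Single high tumours were marked in Pdk4 (tumour 5, 782 CPM), Gsta3 (tumour 4, 370 CPM), Nras (tumour 17, 4667 CPM), Myh15 (tumour 20, 116 CPM) and Ccdc136 (tumour 24, 551 CPM), and tumour 24 was far below the others in Krt14 (1.03 CPM). Tumour 20 had a high score for T and NK cells (2.69), which rests on 1 gene kept. Tumour 4 was marked by its share of counts in Rn7sk (22.6%) and in mitochondrial genes (11.2%, with a score of 2.26), by its alignments that were not unique (52.0%) and, as the lowest tumour, by its alignments outside annotated genes (8.08%, against 21.7% in the next).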

How the results depend on the processing

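Of the 500 genes, 488 stayed with relative log expression scaling, 486 with upper quartile scaling, 472 when small structural RNA and mitochondrial genes were left out of the scaling, 497 and 493 with prior counts of 0.5 and 5, and 356 at a minimum mean of 5 CPM. Fewer stayed at a minimum of 20 CPM (323), without a filter (206), with the median absolute deviation (299) and with the residual of the SD from its trend on the mean (326). Since 500 are taken whatever the number of genes kept, another filter changes which genes compete. Leaving out 1 tumour kept 366 (without tumour 1) to 455 (without tumour 21), and 134 stayed in all 9 such selections.

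Genes with a single tumour far from the others numbered 63, and 15 with the median absolute deviation, which is less moved by 1 tumour than the SD. There were 241 when a gap of at least 2 on the log2 scale was used instead of Dixon's ratio, and 47 to 86 when a tumour was left out. The number of gene groups was 10, and 9 to 17 when a tumour was left out, with the 17 reached without tumour 1. Of 1122 other counts, by list or by tumour, 959 stayed within 1.5 times their value and 163 moved further. No paired analysis was possible because no groups of samples were compared, and the replicate numbers of the tumours and the epithelium have only number 1 in common.

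With 1 library per tumour there is no replicate of any tumour, so the spread between tumours includes that of sampling and library preparation. Levels near the limit that a count of 0 allows are imprecise, and large folds against them should be read as such.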

Other observations

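Among the 82 members in no group, Gm10800 and Gm21738, predicted genes, had 11030 and 89.7 CPM in tumour 24. BC018473, an uncharacterised transcript, ran from 0.433 CPM in tumour 17 through a median of 20.97 CPM to 861 CPM in tumour 4.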
